A study of Mus musculus with 8 samples.

Results

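The genes described here are 9 transcription factors listed together under the identity of CAR cells, the CXCL12-abundant reticular cells of bone marrow: *Foxc1*, *Ebf1*, *Ebf2*, *Ebf3*, *Prrx1*, *Twist1*, *Twist2*, *Zeb2* and *Tcf4*. They were chosen by name, with earlier results of these data known, and are 9 of the 52636 genes in the count table. RNA was sequenced from sorted bone marrow mesenchymal stem and progenitor cells (MSPCs) of 4 CTR mice (Flk2-cre+ Cxcr4fl/+) and 4 cKO mice (Flk2-cre+ Cxcr4fl/fl), all on C57BL/6 and aged 6 weeks according to the labels, whereas the methods give an older range for the mice of the study. Both groups carry the Cre and at least 1 floxed *Cxcr4* allele. Cre is expressed under the *Flk2* promoter, which is active in hematopoietic progenitors and not in MSPCs, so that the sorted cells are neighbors of the *Cxcr4*-deleted cells. The sort took CD45- Ter119- CD31- CD144- PDGFRα+ cells with GFP from the SCF (*Kitl*) locus. The sorted cells of both groups therefore carried a *Kitl* GFP allele, which the genotypes above do not name. The paper reports more membrane-bound SCF and more hematopoietic stem cells in cKO mice, and control levels of both in cKO mice heterozygous for this allele. The comparison asks whether loss of CXCR4 from hematopoietic progenitors and the cells that arise from them goes together with altered transcription in their niche cells. The paper also reports that cKO marrow held fewer lymphoid and myeloid progenitors and fewer mature immune cells. Each library is from a single mouse, and total counts ranged from 31047344 to 38216877. In bulk RNA, a change in the share of cells of a type and a change in RNA per cell cannot be told apart.

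CAR cells are perivascular, leptin receptor-positive cells that secrete CXCL12 and stem cell factor and so hold hematopoietic stem cells and lymphoid progenitors in place. *Foxc1*, a forkhead factor, and *Ebf1* and *Ebf3*, helix-loop-helix factors with their own zinc-binding DNA-binding domain, are known to establish this state and to keep marrow stroma from turning into fat or bone. *Prrx1* is a homeodomain factor of limb and craniofacial mesenchyme. *Twist1* and *Twist2* are basic helix-loop-helix factors that pair with E proteins, of which *Tcf4* (also called E2-2) encodes a member, while *Zeb2* encodes a zinc-finger repressor of epithelial genes such as *Cdh1*.

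The labelled cell type was checked first. *Cxcl12* was the most abundant gene of the whole table by mean CPM (counts scaled to a common library size by the TMM method, not corrected for gene length), and *Lepr* ranked 16, *Adipoq* 26, *Kitl* 137 and *Pdgfra* 153. *Tek*, a marker of endothelium, had 0 counts in all 8 libraries, which allows up to 0.0966 CPM in the shallowest library (3 counts). *Ptprc*, the gene of CD45, lay between 0 and 0.978 CPM and *Cdh5*, the gene of CD144, between 0 and 0.611 CPM. Other endothelial and blood genes were higher. Over both genotypes, 12 endothelial genes summed to 6.04 to 16.3 CPM, 13 myeloid genes to 32.5 to 104 CPM and 8 erythroid genes to 67.4 to 277 CPM. Of 12 summed marker and response lists, 2 did not overlap between genotypes. The sum of 18 immediate early genes was 1537 to 1626 CPM in CTR and 1117 to 1413 CPM in cKO, and that of 6 Schwann cell genes, nearly all from *S100b*, was 39.2 to 45.0 CPM in CTR and 48.9 to 51.0 CPM in cKO (each p = 0.0286 by a two-sided exact permutation test, the smallest p that 4 against 4 allows, and 0.171 after Benjamini-Hochberg adjustment over the 12 sums). Their part in the values below was not tested.

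All 9 factors had counts in every library, from 237 to 570 counts for *Twist2* to 33508 to 51993 counts for *Foxc1*. To compare factors with each other, CPM were divided by the length of all annotated exons of a gene in kilobases. On this scale, *Foxc1* stood highest at 219 ± 21.6 CPM per kilobase (SD, n = 8), rank 147 of the 25681 genes with a count. *Ebf1* followed at 49.5 ± 6.07 (rank 892), and its highest library stayed below the lowest *Foxc1* value. Below *Ebf1*, and not overlapping with it, were *Ebf3* at 23.6 ± 4.46, *Twist1* at 21.6 ± 2.10, *Zeb2* at 16.4 ± 2.58 and *Prrx1* at 16.0 ± 1.88. Neighbors in this group of 4 overlapped in their ranges over libraries. *Ebf2* at 4.05 ± 1.00, *Twist2* at 3.68 ± 1.06 and *Tcf4* at 3.54 ± 0.638 formed a lower group whose ranges also overlapped, and none of them reached the lowest *Prrx1* value of 14.4.

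The order within the lower 2 groups depends on which length is used, because the number of annotated transcripts differs widely, from 1 for *Foxc1* and *Twist1* to 29 for *Zeb2* and 62 for *Tcf4*. Divided by the longest single transcript instead, *Zeb2* was at 35.8 and *Tcf4* at 11.3 CPM per kilobase, so that *Zeb2* and *Prrx1* (27.2) moved above *Twist1* (21.6), and *Tcf4* above *Ebf2* (5.39) and *Twist2* (4.63) without overlap. *Foxc1*, *Ebf1* (80.7) and *Ebf3* (43.7) kept the first 3 places with either length.

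**Figure D1:**
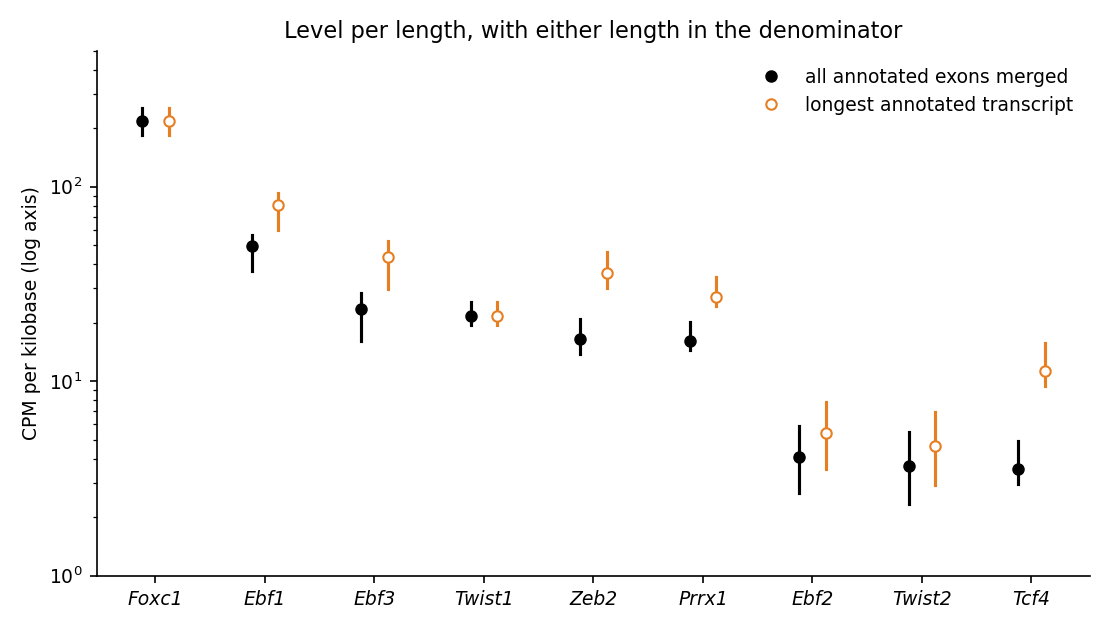
Mean level of each factor in CPM per kilobase (log axis), with lines from the lowest to the highest of the 8 libraries; filled points divide by all annotated exons merged, open points by the longest annotated transcript. *Foxc1* (219) and *Ebf1* (49.5 or 80.7) are the highest with either length, and *Tcf4* moves most, from 3.54 to 11.3.

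*Foxc1* (chr13:31806633-31812476 on GRCm38, plus strand, 1 annotated transcript) measured 1082, 1381, 1173 and 1311 CPM in CTR1 to CTR4 and 1213, 1478, 1349 and 1245 CPM in cKO1 to cKO4. The lowest library was a CTR and the highest a cKO, and the groups overlapped over most of their range. Its coefficient of variation over the 8 libraries was 9.88%, with *Twist1* (9.74%) the least variable of the 9. The log2 fold change (cKO against CTR) was 0.09 (standard error 0.11, 95% interval -0.15 to 0.34; adjusted p = 0.999 by the edgeR quasi-likelihood test, Benjamini-Hochberg adjusted). Of 47 other transcription regulators listed as partners, paralogs or lineage factors, only *Id3* (359) and *Snai2* (261 CPM per kilobase) lay above *Foxc1*. *Foxc2*, its closest paralog, was at 7.73 on the same scale.

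The EBF family was represented chiefly by *Ebf1* (chr11:44617317-45008091, plus strand). It measured 507, 359, 477 and 538 CPM in CTR and 554, 460, 489 and 477 CPM in cKO. The 2 ends of the range were CTR2 (lowest) and cKO1 (highest), and 3 of the 4 CTR libraries lay within the range of cKO. *Ebf1* is also the factor that commits cells to the B lineage. Of that lineage's other genes, *Pax5* was between 0 and 0.644 CPM, and the summed level of 10 B cell genes was 0.0969 to 16.4 CPM in CTR and 1.48 to 2.65 CPM in cKO.

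*Ebf3* (chr7:137193673-137314445, minus strand) measured 243, 214, 165 and 263 CPM in CTR and 220, 240, 148 and 250 CPM in cKO. In both genotypes the library numbered 3 was the lowest, and the other 3 overlapped. *Ebf2* (chr14:67233292-67430918, plus strand), known from brown fat precursors and immature osteoblast-lineage cells, was lower and more variable, with 31.6, 31.3, 18.4 and 29.0 CPM in CTR and 24.9, 27.7, 40.7 and 21.0 CPM in cKO. Its highest value, in cKO3, was 2.21 times its lowest, in CTR3. The log2 fold changes were 0.07 for *Ebf1* (95% interval -0.22 to 0.37), -0.04 for *Ebf3* (-0.46 to 0.37) and 0.05 for *Ebf2* (-0.48 to 0.58).

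Of the summed level of the 3 *Ebf* genes per kilobase, *Ebf1* made up 57.1% to 70.4% in CTR and 61.1% to 69.6% in cKO. *Ebf3* made up 25.8% to 35.9% in CTR and 22.3% to 34.3% in cKO, and *Ebf2* 3.83% to 7.0% and 3.82% to 8.15%. The shares overlapped between genotypes in all 3 cases. *Ebf4*, the remaining paralog, had 0 counts in at least 1 library, at most 44 counts, and a mean of 0.401 CPM.

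*Prrx1* (chr1:163245119-163313710, minus strand) measured 160, 184, 162 and 223 CPM in CTR and 166, 165, 173 and 184 CPM in cKO. CTR4 stood above the other 7 libraries. The remaining CTR libraries spanned 160 to 184 CPM and cKO 165 to 184 CPM. The log2 fold change was -0.09 (95% interval -0.35 to 0.18), and 0.02 without CTR4. *Prrx2*, its paralog, was near the detection limit with 11 to 77 counts per library.

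*Twist1* (chr12:33957671-33959829, plus strand) and *Twist2* (chr1:91801461-91848028, plus strand) encode proteins that are nearly the same in their basic helix-loop-helix domain and the residues after it. The 300 last coding bases of both genes, which hold this domain, are shown because their likeness decides whether reads of one could be counted for the other; capitals mark the bases that differ.
Twist1, chr12:33958299-33958598 (GRCm38, plus strand): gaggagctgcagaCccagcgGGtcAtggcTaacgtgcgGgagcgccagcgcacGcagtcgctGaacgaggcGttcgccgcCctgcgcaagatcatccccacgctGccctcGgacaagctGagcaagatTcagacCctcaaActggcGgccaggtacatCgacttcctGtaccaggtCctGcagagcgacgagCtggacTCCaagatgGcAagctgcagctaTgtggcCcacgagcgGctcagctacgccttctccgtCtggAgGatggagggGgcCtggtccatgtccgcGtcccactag
Twist2, chr1:91801810-91802109 (GRCm38, plus strand): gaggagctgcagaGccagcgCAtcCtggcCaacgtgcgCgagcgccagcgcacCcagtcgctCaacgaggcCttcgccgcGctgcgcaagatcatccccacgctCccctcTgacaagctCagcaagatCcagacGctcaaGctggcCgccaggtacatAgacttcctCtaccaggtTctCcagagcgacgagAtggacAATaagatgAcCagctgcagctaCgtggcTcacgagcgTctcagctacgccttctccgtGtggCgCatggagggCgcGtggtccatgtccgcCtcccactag
In this stretch 264 of 300 bases (88.0%) are identical, but the longest run without a difference is 23 bases. The reads were at most 69 bases long after trimming, and shorter where the quality at the 3′ end was low. No stretch of 69 bases in the transcripts of any of the 9 factors is shared with another of the 9. A read of that full length without a mismatch could therefore not fall in both *Twist1* and *Twist2*, or in 2 of the *Ebf* genes, and shorter stretches were compared only in the 300 bases shown.

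*Twist1* measured 41.8, 33.6, 33.0 and 35.4 CPM in CTR and 33.7, 33.0, 38.7 and 31.8 CPM in cKO. CTR1 and cKO3 were the 2 highest libraries, and the others fell within 31.8 to 35.4 CPM. *Twist2* measured 7.65, 14.2, 12.05 and 12.1 CPM in CTR and 9.90, 12.6, 17.5 and 7.42 CPM in cKO, the widest relative spread of the 9 factors (coefficient of variation 28.7%). CTR1, the library with the most *Twist1*, had nearly the least *Twist2*. In contrast, cKO3 was second highest in *Twist1* and highest in *Twist2*, and cKO4 was the lowest in both. Of the level of both genes per kilobase, *Twist1* made up 82.2% to 91.4% in CTR and 81.2% to 89.3% in cKO. The log2 fold changes were -0.07 for *Twist1* (95% interval -0.35 to 0.21) and 0.04 for *Twist2* (-0.62 to 0.70).

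*Twist2* is the factor whose count is the least certain. The annotated antisense gene *Gm29100* (chr1:91798528-91802937, minus strand) runs across the whole coding sequence of *Twist2*, including all of the stretch printed above, and 45.4% of the 69-base stretches of *Twist2* transcripts also lie in *Gm29100* on the other strand. The strand setting of the counting is not given in the sources used here, and without strand reads of the 2 genes cannot be told apart in this exon. *Gm29100* had 112, 296, 154 and 258 counts in CTR and 153, 256, 284 and 121 counts in cKO, which is 39.6% to 63.7% of the *Twist2* count of the same library. The 2 counts went up and down together over the 8 libraries: on the log2(CPM + 1) scale Pearson's r was 0.933 (p = 0.000496, 0.00198 after Benjamini-Hochberg adjustment over 4 such pairs) and Spearman's rho 0.976 (p = 0.000397, adjusted 0.00159), both two-sided by exact permutation. Without the 2 libraries farthest from the median of *Gm29100*, r was 0.912. With the means of the 2 title number ranges (described below) removed, r was 0.961 (p = 0.00174 by exact permutation within the ranges, the smallest p they can give, adjusted 0.00694), and the rank order of the 4 libraries was the same for both genes within each range. These pairs were picked after the overlaps were known. If reads of one gene of a pair were counted for the other, the 2 counts were not separate measurements. The p-values of these pairs, here and below, then do not show joint variation of the 2 RNAs. Whether reads were shared in this way was not tested.

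**Figure D2:**
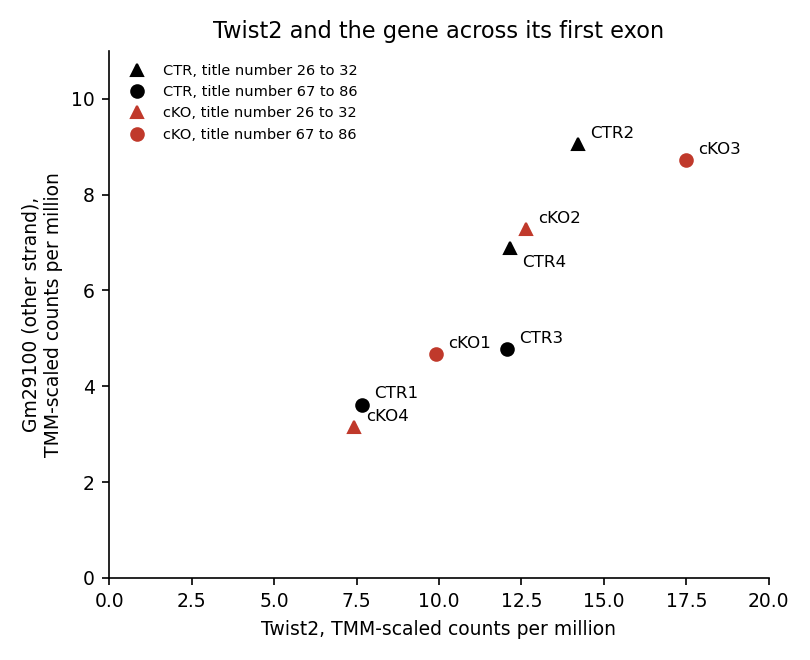
TMM-scaled CPM of *Twist2* (x axis) and of *Gm29100* on the other strand (y axis), 1 point per library, with color for the genotype and shape for the number in the sample title. The libraries with the least *Twist2*, CTR1 (7.65) and cKO4 (7.42), have the least *Gm29100*, and CTR2 and cKO3 the most of both.

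The other antisense genes that share exon sequence with a factor reach less of it. *Gm10860* shares 4.27% of the 69-base stretches of *Ebf2*, *Gm45278* shares 1.65% of those of *Ebf3*, and *Zeb2os* most of the 1.64% that *Zeb2* shares. Their counts were 7.23% to 15.7% of the *Ebf2* count, 3.04% to 4.64% of the *Ebf3* count and 1.71% to 3.20% of the *Zeb2* count of the same library. On the same scale, r was 0.754 for *Gm10860* with *Ebf2* (exact permutation p = 0.0311, adjusted 0.0424; rho 0.548, p = 0.171, adjusted 0.228), and 0.744 for *Gm45278* with *Ebf3* (p = 0.0318, adjusted 0.0424; rho 0.690, p = 0.0694, adjusted 0.139). Without the 2 farthest libraries both values were 0.654. With the means of the title number ranges removed they were 0.771 and 0.680 and did not pass the threshold (exact permutation p = 0.0764 and 0.104, both adjusted 0.139). For *Zeb2os* with *Zeb2*, r was 0.490 (exact permutation p = 0.216, adjusted 0.216) and rho 0.310 (p = 0.462, adjusted 0.462), r was 0.258 with the range means removed (exact permutation p = 0.519, adjusted 0.519), and r was -0.0038 without the 2 farthest libraries, so that this value rests on them. Antisense genes inside introns, which share no exon with a factor, had few counts: *Gm12158* within *Ebf1* had 43 to 185, *Gm10578* within *Ebf3* 15 to 121, and *Gm20471* within *Prrx1* 0 to 33.

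*Zeb2* (chr2:44983632-45117395, minus strand) measured 348, 303, 276 and 419 CPM in CTR and 283, 349, 275 and 364 CPM in cKO. CTR4 was the highest and cKO3 the lowest, close to CTR3. *Zeb2* is also expressed in macrophages and dendritic cells. The macrophage genes *Csf1r* and *Adgre1* were at 4.78 to 11.4 and 0 to 2.54 CPM, and 13 myeloid genes together at 32.5 to 104 CPM. The log2 fold change of *Zeb2* was -0.08 (95% interval -0.41 to 0.25), and 0.04 without CTR4. The related repressor *Zeb1* was lower than *Zeb2*, at 2.03 against 16.4 CPM per kilobase, with a log2 fold change of 0.14.

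*Tcf4*, on chromosome 18, measured 87.3, 105, 90.5 and 134 CPM in CTR and 87.8, 104, 84.4 and 81.1 CPM in cKO. CTR4 was again the highest, and the other 3 CTR libraries lay close to the cKO range. Its log2 fold change, -0.22 (standard error 0.15, 95% interval -0.55 to 0.11; unadjusted p = 0.164, adjusted p = 0.999 by the edgeR quasi-likelihood test, Benjamini-Hochberg adjusted), was the largest in size of the 9, and was -0.08 without CTR4. *Tcf4* also governs plasmacytoid dendritic cells, whose surface gene *Siglech* was between 0 and 0.712 CPM. Other genes listed for these cells were higher, with *Irf8* at 9.84 to 42.9 CPM and *Bst2* at 120 to 223 CPM, while *Cox6a2* and *Klk1* had 0 counts in all libraries. The other E protein genes showed log2 fold changes of -0.0046 (*Tcf3*, at 21.1 CPM per kilobase) and -0.11 (*Tcf12*, at 3.56).

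**Figure D3:**
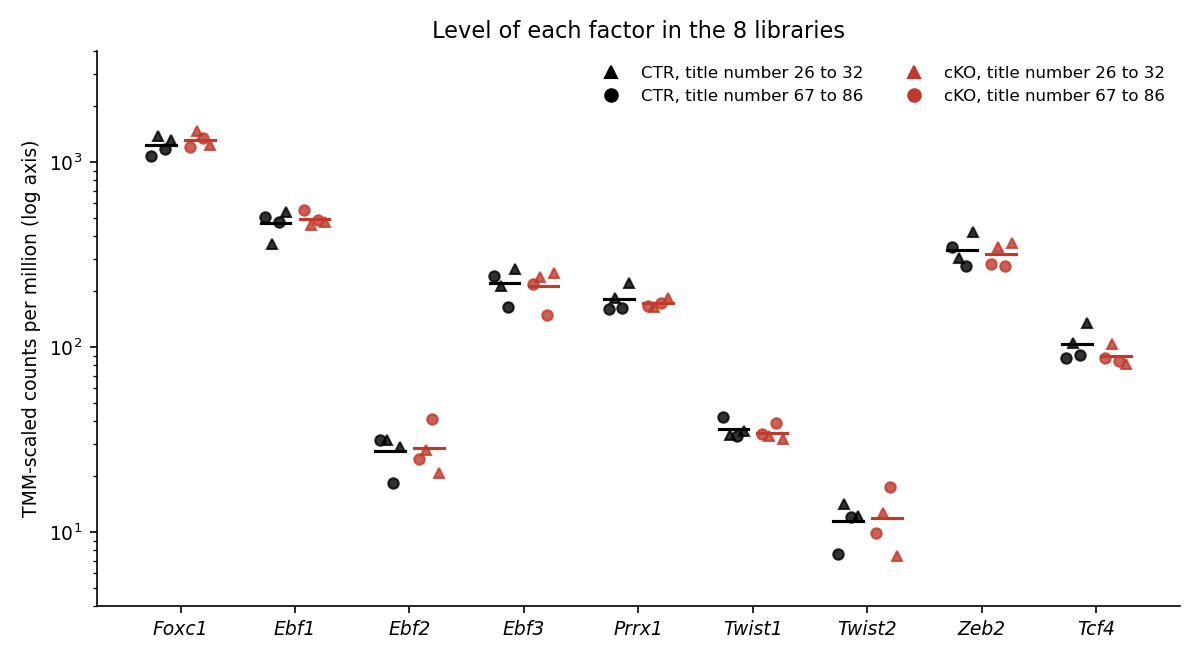
TMM-scaled CPM of the 9 factors (log axis) in each library, with CTR in black, cKO in red, shapes for the 2 ranges of title numbers and horizontal lines for group means. CTR and cKO points overlap for every factor, from *Twist2* (7.42 to 17.5) to *Foxc1* (1082 to 1478).

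Between genotypes, 0 of the 9 factors had an adjusted p-value under 0.05 by the edgeR quasi-likelihood test (Benjamini-Hochberg), against 0.0% of the 14598 genes tested. The count over all genes depends on the model. The methods name DESeq2's likelihood ratio test with a batch correction, but the labels name no batch. With the title number range (described below) as a term, that test called 47 genes, and 0 of the 9 factors. At an unadjusted p-value under 0.05 there were 0 of the 9, against 4.43% of all genes tested (646 genes). The libraries of the 2 genotypes overlapped for all 9, and failed to overlap for 2.61% of all genes. The log2 fold change was above 0 for 4 factors and below 0 for 5, beside 50.2% of all genes below 0. In size it was at most 0.22, with a median of 0.07, beside a median of 0.14 over all genes, of which 70.5% were under 0.25 as the 9 were.

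What size of change the data leave room for is given by the 95% intervals. All 9 lay within a 2-fold change in either direction, and 8 within 1.5-fold. The exception was *Twist2*, whose interval ran from 0.650 to 1.63 times the CTR level. The narrowest was that of *Foxc1*, from 0.90 to 1.27 times. The biological coefficient of variation estimated by edgeR was below the trend for genes of like abundance in 6 of the 9 and above it in *Ebf2*, *Ebf3* and *Twist2*.

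**Figure D4:**
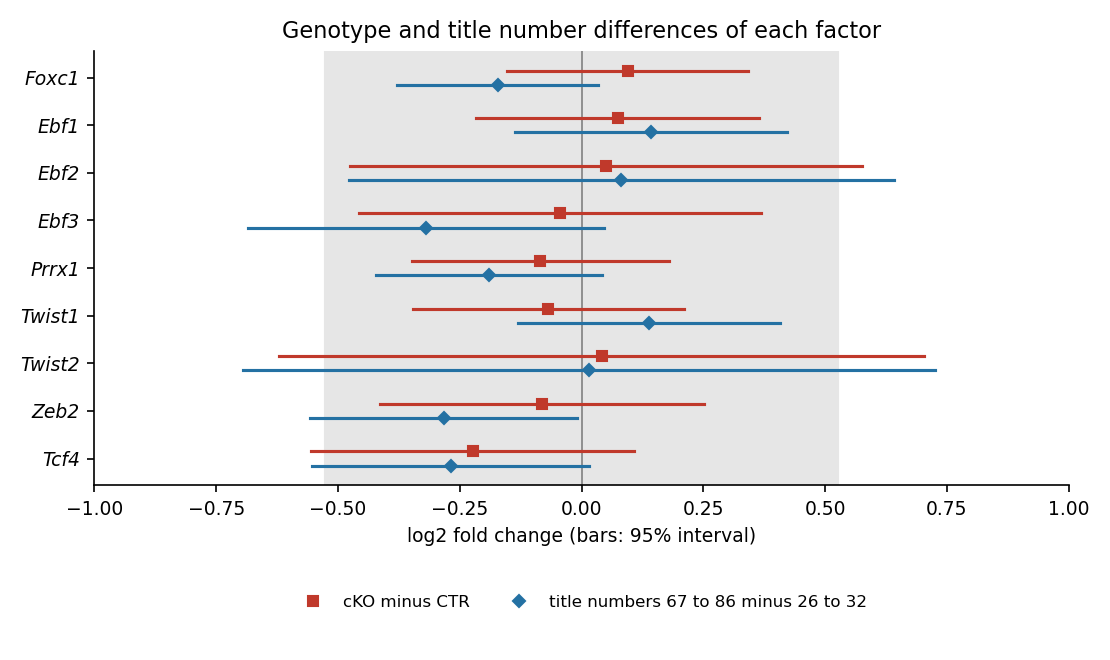
Log2 fold change of each factor with its 95% interval, for cKO minus CTR (red) and for libraries with title numbers 67 to 86 minus 26 to 32 (blue); the gray band holds 90% of all genes tested for genotype (within 0.53 either way). All genotype intervals include 0, and of the title number intervals that of *Zeb2* (-0.56 to -0.01) does not.

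The direction of these small differences rested on single libraries in most cases. Leaving out CTR4 brought *Prrx1*, *Zeb2* and *Ebf3* (0.05) above 0. Leaving out cKO3 turned *Ebf2* to -0.17, *Twist2* to -0.21 and *Ebf3* to 0.10. *Ebf1* was at -0.04 without CTR2, *Ebf2* at -0.11 without CTR3, and without CTR1 *Twist1* was at 0.01, *Ebf3* at 0.0040 and *Twist2* at -0.11. *Foxc1* (0.03 to 0.15) and *Tcf4* (-0.31 to -0.08) kept their sign whichever library was left out.

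The sample titles carry a number whose meaning the labels do not give. It is 26 to 32 in CTR2, CTR4, cKO2 and cKO4 and 67 to 86 in CTR1, CTR3, cKO1 and cKO3, so that both ranges hold 2 libraries of each genotype. With genotype as a term, 0 of the 9 factors had an adjusted p-value under 0.05 between these ranges in edgeR, beside 0.0137% of all genes (2 genes, *Cldn1* and *Srgn*). The libraries of the 2 ranges overlapped for all 9, and did not for 7.69% of all genes. *Zeb2* was the 1 factor with an unadjusted p-value under 0.05, beside 11.6% of all genes. Its mean was 359 CPM at 26 to 32 and 295 CPM at 67 to 86 (log2 fold change -0.28, standard error 0.12, unadjusted p = 0.0438, adjusted p = 0.415 by the edgeR quasi-likelihood test, Benjamini-Hochberg adjusted).

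*Ebf3* (-0.32, 95% interval -0.69 to 0.05), *Tcf4* (-0.27, -0.55 to 0.01), *Prrx1* (-0.19, -0.42 to 0.04) and *Foxc1* (-0.17, -0.38 to 0.03) were also lower at 67 to 86, with intervals that included 0. *Ebf1* (0.14), *Twist1* (0.14), *Ebf2* (0.08) and *Twist2* (0.02) were higher, also with intervals that included 0. The 5 lower factors of 9 stand beside 51.0% of all genes. For 8 of the 9 factors this difference was larger in size than the genotype difference of the same factor, the exception being *Twist2*. The share of all genes for which this holds was not counted. The median size of the title number difference was 0.17 for the 9 and 0.19 for all genes. That of the genotype difference was 0.07 for the 9 and 0.14 for all genes, so that the title number difference was the larger in both. The sum of 8 erythroid genes was 67.4 to 169 CPM at 26 to 32 and 154 to 277 CPM at 67 to 86, and its part in these differences was not tested.

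Within each range of title numbers, the genotype difference had the same sign in both for 5 factors and opposite signs for 4. *Twist2* went from -0.39 at 26 to 32 to 0.47 at 67 to 86, *Ebf2* from -0.30 to 0.39, *Prrx1* from -0.22 to 0.07 and *Ebf3* from 0.05 to -0.16. *Tcf4* was at -0.36 and -0.05, *Foxc1* at 0.02 and 0.18, *Zeb2* at -0.01 and -0.16, *Twist1* at -0.09 and -0.05, and *Ebf1* at 0.07 and 0.08. The test of the difference between the ranges (the interaction) reached an unadjusted p-value under 0.05 in 0 of the 9, beside 3.44% of all genes. It was largest for *Twist2* (0.87, 95% interval -0.48 to 2.22; unadjusted p = 0.177 in edgeR's quasi-likelihood test) and *Ebf2* (0.70, -0.36 to 1.76; unadjusted p = 0.168).

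**Figure D5:**
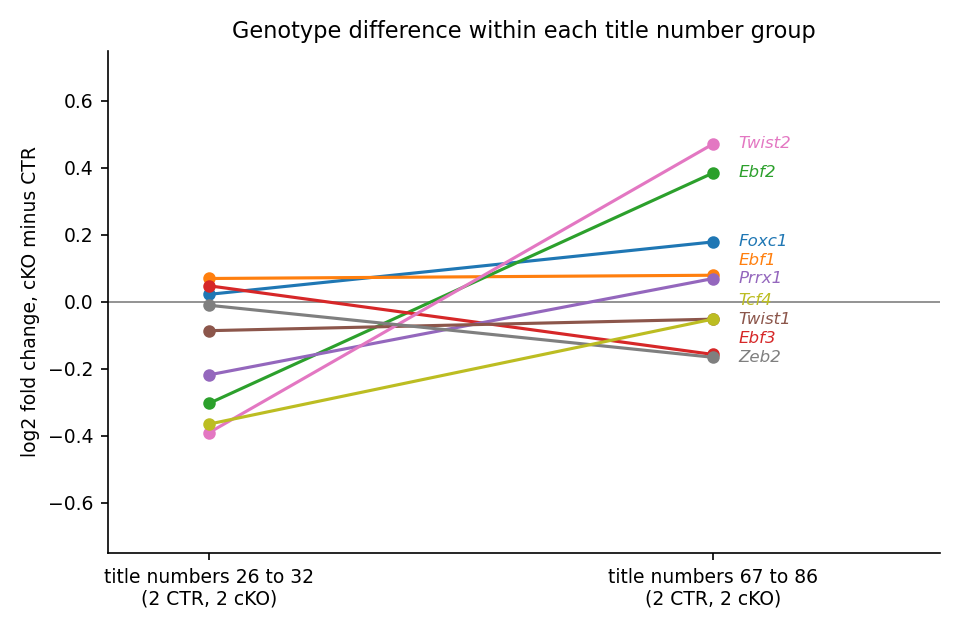
Log2 fold change (cKO minus CTR) of each factor within the 4 libraries of title numbers 26 to 32 (left) and the 4 of 67 to 86 (right), joined by a line per factor. The steepest lines are those of *Twist2* (-0.39 to 0.47) and *Ebf2* (-0.30 to 0.39); 4 of the 9 cross 0.

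The partners and targets of these factors were read from lists. Among 23 partners and paralogs (E proteins, Id and Snail proteins, Fox and Ebf relatives), 16 had counts in every library, and 0 of them passed 0.05 before or after adjustment. Their median log2 fold change was -0.08, beside -0.0013 for all genes. *Id3*, which encodes a helix-loop-helix protein without a DNA-binding region that sequesters E proteins, measured 624 ± 162 CPM in the 4 CTR libraries and 663 ± 171 CPM in the 4 cKO libraries (mean ± SD). *Snai2*, a zinc-finger repressor, measured 489 ± 155 and 568 ± 109 CPM (log2 fold change 0.22, 95% interval -0.26 to 0.70). *Hand1* and *Foxf1* had 0 counts in all libraries.

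Among 24 factors of the osteoblast, adipocyte and chondrocyte lineages, which some of these factors are known to restrain, 18 were tested and 0 passed 0.05 before or after adjustment (median -0.03). *Cebpb* and *Cebpa*, of the fat lineage, had the highest levels per length, at 135 and 102 CPM per kilobase, with log2 fold changes of -0.10 and 0.21. *Runx2* and *Sp7*, the osteoblast factors, were at 18.0 and 21.2 on this scale, close to *Prrx1* and *Twist1*.

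Of 28 genes that mark CAR cells, all were tested, and 0 passed after adjustment. The log2 fold change was above 0 for 22 and below 0 for 6 (median 0.06), beside 50.2% of all genes below 0. *Cxcl14*, a chemokine gene, was the 1 gene of the list with an unadjusted p-value under 0.05 between genotypes, beside 4.43% of all genes. It was at 3971 ± 615 CPM in CTR and 3198 ± 370 CPM in cKO (log2 fold change -0.31, standard error 0.14, adjusted p = 0.999 by the edgeR quasi-likelihood test, Benjamini-Hochberg adjusted). *Cxcl12* measured 44603 ± 4335 CPM in CTR and 44808 ± 4506 CPM in cKO, a log2 fold change of 0.01 (95% interval -0.30 to 0.32). *Hp*, which encodes haptoglobin, was at 7018 ± 1461 and 6904 ± 767 CPM. Between the title number ranges, 7 of the 28 were higher and 3 lower at 67 to 86 with an unadjusted p-value under 0.05 in edgeR, beside 11.6% of all genes. After adjustment 0 passed.

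Epithelial genes, the classical targets of *Zeb2*, *Twist1* and the Snail factors, were at or near 0. Of 14, only *Esrp2* had counts in every library (57 to 78 counts), and *Cdh1*, *Esrp1*, *Ovol2*, *Cldn4*, *Cldn7* and *Crb3* had 0 in all 8. *Krt8* had 66 counts in CTR4 and was at 0 in all other libraries of both genotypes. Of 14 mesenchymal genes, 13 were tested, with 0 past 0.05 before or after adjustment and a median of -0.07. *Sparc* was at 5325 ± 423 CPM in CTR and 5515 ± 1157 in cKO, and *Col1a2*, a collagen I chain gene, at 5453 ± 254 and 5199 ± 103 CPM.

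The genes whose level ran most like that of each factor over the 8 libraries were looked up among the 9405 genes averaging 10 CPM or more, as a description that shares depth and library effects and carries no test. By Pearson's r, *Zeb2* ran closest to *Kitl*, the gene whose GFP allele was used in the sort (r 0.977, Spearman's rho 0.976). *Kitl* measured 757, 643, 550 and 929 CPM in CTR and 634, 761, 550 and 852 CPM in cKO, with its highest value in CTR4, as for *Zeb2*, and its log2 fold change between genotypes was -0.04. The next for *Zeb2* by r was *Bckdk* (r 0.963), which was the closer of these 2 genes by rank (rho 1.00).

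For the other factors the closest genes were *Brd8* and *Nlrc5* for *Foxc1* (r 0.973 and 0.967), *Fermt2* and *Ccdc28b* for *Ebf1* (0.981 and 0.952), *Exoc6b* for *Ebf2* (0.948), and *Ppfia2* and *Son* for *Ebf3* (0.969 and 0.953). *Prrx1* ran closest to *Cux1* and *Mtmr2* (0.942 for both), *Twist1* to *Stoml2* and *Ap2a2* (0.954 and 0.947), *Twist2* to *Dtd2* and *AW554918* (0.940 and 0.915), and *Tcf4* to *Atp11a* and *Qk* (0.963 and 0.948). None of these genes is itself 1 of the 9.

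RefSeq promoter windows of GRCm38.p6, from 250 bases before to 50 after a start site, were matched for 7 of the 9 factors (not *Ebf2* and *Tcf4*). They differ widely in CpG content. The first window of *Ebf3* holds 46 CpG dinucleotides and is 77.0% G and C, above 98.4% of all 32851 windows in CpG count. *Foxc1* has 32, *Twist1* 27, *Twist2* 25, *Ebf1* and *Zeb2* 9 each, and *Prrx1* 6, beside a median of 7. The upstream parts of the windows with the most and the fewest are shown 5′ to 3′ on the gene's strand, with CpG in capitals.
Ebf3, chr7:137314446-137314695 (minus strand): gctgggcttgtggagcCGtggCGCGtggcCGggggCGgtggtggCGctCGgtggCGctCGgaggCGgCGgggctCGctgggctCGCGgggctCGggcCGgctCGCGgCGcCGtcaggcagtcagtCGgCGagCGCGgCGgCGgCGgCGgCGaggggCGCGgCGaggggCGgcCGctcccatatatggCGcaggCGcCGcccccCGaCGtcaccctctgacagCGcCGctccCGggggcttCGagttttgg
Prrx1, chr1:163313711-163313900 (minus strand): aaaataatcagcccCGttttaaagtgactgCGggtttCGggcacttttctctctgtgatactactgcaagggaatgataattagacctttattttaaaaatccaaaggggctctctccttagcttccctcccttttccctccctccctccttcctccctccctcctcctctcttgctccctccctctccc
The level of *Ebf3* was 23.6 and that of *Prrx1* 16.0 CPM per kilobase, with overlapping ranges.

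The letters bound by these families were searched on both strands in the 7 first windows. The E-box CANNTG, bound by Twist proteins paired with E proteins, was in 0 of the 7, and in 72.3% of all windows. Counting every window of the 7 factors, it was in 1 of 11, the second of *Ebf1*, which holds 2. The letters CACCTG, bound by Zeb and Snail proteins and found in 20.2% of all windows, are a form of this E-box. Their 0 of 7 therefore follows from that of the E-box and is no separate result. The EBF motif, TCCC and GGGA with 2 bases of any kind between them (0.904% of all windows), was in 0 of 7. So was the forkhead core TGTTTAC (3.65%). The homeodomain core TAATTA was in 1, that of *Prrx1* (5.29% of all windows), in the stretch printed above. These are matches of letters in short windows and say nothing on binding.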

How the data were processed

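Per the labels and the methods, the authors trimmed paired reads, aligned them to GRCm38 (mm10) with HISAT2, counted them with HTSeq and deposited raw counts per gene without normalization. Low values favor odd numbers, for a reason not given in the sources used here. Polyadenylated RNA of 8 libraries was sequenced, and total counts lay between 31047344 and 38216877. P-values and intervals measure the spread between these mice. Of 52636 genes, 52403 were matched to a symbol. Coordinates and lengths are those of GENCODE M21 on GRCm38, a release other than the one the methods name.

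Counts were scaled by TMM, and edgeR 4.0.16 was run on the 14598 genes counted at least once per library (quasi-likelihood test, Benjamini-Hochberg adjustment, threshold 0.05, no covariates) in R 4.3.3, and between title number ranges with genotype as a term. Intervals are at 95%. Within a title number range the fit used its 4 libraries alone. This and the correlations with range means removed were chosen after seeing the data. In simulated data with 200 changed genes, the genotype fit recovered 77% of log2 changes of 1 (among 14280 genes) with 9 false calls, and 0% of 0.5 (among 14264). Other scalings, filters and tools (DESeq2 1.42.0, limma-voom of limma 3.58.1), the title number range as a term, and each library left out were tried as alternatives.

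Likeness used log2(CPM + 1). The 9 factors and the lists were chosen with earlier results of these data known. Named besides the 9 factors are, for each list, the 2 genes highest per length and those with unadjusted p under 0.05, the 2 most abundant genes of each marker list, the 2 genes most like each factor (1 of those for *Ebf2* is not reported here) and antisense genes that overlap one. *Runx2*, *Sp7*, *Foxc2*, *Ebf4*, *Prrx2*, *Zeb1*, *Tcf3*, *Tcf12* and single markers of other cell types were added for their role after values were seen.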

Additional observations from a re-analysis of the deposited data

Results flagged for a closer look

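The summed level of 18 immediate early genes was 1413 CPM in cKO3 and between 1117 and 1156 CPM in the other cKO libraries. The gap of cKO3 to the nearest library was 0.868 of the range of the 4, above Dixon's 95% critical value for 4 samples. It was the 1 such library among 42 groups of 4 examined (the 9 factors and 12 summed lists in either genotype), of which chance alone would give about 1 in 20. None of the 9 factors was set apart in this way in any library.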

How the results depend on the processing

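Under every alternative run, 0 of the 9 factors passed the threshold between genotypes or between title number ranges. Over all genes the genotype count was 0 by edgeR, 23 by DESeq2's Wald test, 47 by its likelihood ratio test with the title number range as a term, and 1 each with filterByExpr and without a filter. The title number count was 2 by edgeR, 380 by DESeq2's Wald test, 4 without a filter, 1 with RLE scaling, and 0 to 4 when 1 library was left out. The genotype difference of *Twist2* was -0.019 with limma-voom, its title number difference -0.0045 with total counts only, and the interaction of *Ebf1* -0.0069 with limma-voom. Within 1 title number range alone, *Ebf2* was at -0.30, *Twist2* at -0.39 and *Ebf3* at 0.048 (26 to 32), and *Prrx1* at 0.070 (67 to 86).

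With 1 library left out, the genotype difference ranged from -0.041 to 0.14 for *Ebf1*, -0.17 to 0.17 for *Ebf2*, -0.17 to 0.10 for *Ebf3*, -0.14 to 0.025 for *Prrx1*, -0.13 to 0.011 for *Twist1*, -0.21 to 0.21 for *Twist2* and -0.17 to 0.039 for *Zeb2*. The title number difference ranged from -0.15 to 0.29 for *Ebf2* and -0.26 to 0.22 for *Twist2*. The cKO minus CTR difference of summed CPM ranged from -4.77 to 0.681 for B cell, -0.879 to 24.4 for plasmacytoid dendritic cell, -1.79 to 1.64 for endothelial and -8.97 to 14.9 for pericyte and smooth muscle genes. For immediate early and Schwann cell genes the sign held, but 3 against 4 libraries cannot give a p below 0.0571.

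Per length of the longest transcript, levels were 80.7 for *Ebf1*, 5.39 for *Ebf2*, 43.7 for *Ebf3*, 27.2 for *Prrx1*, 35.8 for *Zeb2* and 11.3 for *Tcf4*. With the replicate number as a block, the genotype count was 0. Same-numbered libraries of the 2 genotypes correlated at 0.0643 to 0.203 in their deviations, and libraries of different numbers at -0.182 to 0.143. For each cKO library, the same-numbered CTR library gave the highest value. Because the same-numbered values were not all above 0.1, the main fit did not take the numbers as pairs. Same-numbered libraries also held title numbers next to each other in order (78 and 86, 32 and 31, 71 and 67, 27 and 26). The study's reporting summary states that littermates served as controls. Neither this nor the correlations settle whether the libraries are pairs. The correlations of *Ebf2* and *Ebf3* with their antisense genes lost the threshold with the title number range means removed. The cause of these differences was not tested. Simulated log2 changes of 0.5 in 200 genes were not recovered by the edgeR genotype fit after adjustment, with 4 mice a group. The draws for this fit held no title number effect, and the other tools were not run on them. They therefore do not give the limit of the other tools, or of data in which more genes change.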

Other observations

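Summed marker levels of other cell types overlapped between genotypes, apart from the Schwann cell list. Osteoblast genes (mostly *Ibsp*, at a mean of 10665 CPM, and *Spp1*, at 1551) summed to 10491 to 13542 CPM in CTR and 10468 to 15858 CPM in cKO, and adipocyte genes (mostly *Adipoq* and *Pparg*) to 2129 to 3495 and 2709 to 4252 CPM. Fibroblast genes (mostly *Dcn*, with *Ly6a* next) summed to 313 to 438 CPM in CTR and 247 to 374 CPM in cKO, pericyte and smooth muscle genes (*Notch3*, *Des*) to 380 to 449 and 399 to 448 CPM, and chondrocyte genes (*Comp*, *Sox9*) to 68.3 to 117 and 55.2 to 96.5 CPM.

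Erythroid genes (led by *Hbb-bs* and *Hba-a1*) summed to 67.4 to 195 CPM in CTR and 148 to 277 CPM in cKO, and all 8 had a log2 fold change above 0 (median 0.49) with 0 at an unadjusted p-value under 0.05. Myeloid genes (*S100a9*, *S100a8*) summed to 32.5 to 99.7 CPM in CTR and 58.5 to 104 CPM in cKO. Of 13 myeloid genes 7 were tested, and all 7 had a log2 fold change above 0 (median 0.44) with 1 at an unadjusted p-value under 0.05, as had all 5 adipocyte genes tested of 9 (median 0.54, also 1). Over all genes the median was -0.0013, and 4.43% had such a p-value. Endothelial genes (*Emcn*, *Flt4*) summed to 6.04 to 16.3 and 6.26 to 11.97 CPM, and the B cell genes (*Ighm*, *Cd79a*) are given above. The plasmacytoid dendritic cell list summed to 292 to 357 CPM in CTR and 322 to 390 CPM in cKO, of which *Runx2* and *Bst2*, which MSPCs also express, made up 159 and 157 CPM on average. Of the Schwann cell list, *Mbp* was second to *S100b* at 0.861 CPM.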
